A study of Mus musculus with 4 samples.

Results

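Giant ubiquitin ligases are enzymes several times the size of an average protein that attach ubiquitin to other proteins. Their transcripts were examined among RNAs precipitated from mouse hippocampus together with KIF5C, a neuronal heavy chain of the kinesin-1 motor. The set held 7 genes, Herc1, Herc2, Huwe1, Ubr4, Birc6, Mycbp2 and Trip12, taken by their symbols from the 37411 rows of the count table. All 7 had a row and all 7 passed the low-count filter. The KIF5C group consisted of 2 libraries made with an antibody that the labels call a kinesin antibody, and the IgG group of 2 libraries made with a mouse IgG control antibody. Both used whole hippocampus lysate of mice aged 7 to 9 weeks, with the hippocampi of 2 mice in each co-immunoprecipitation and 6 co-immunoprecipitations pooled into 2 samples. The sources used here give no strain, sex or genotype. Nor do they tell whether libraries of 1 antibody had separate mice behind them. The p-values therefore reflect library-to-library spread alone, and part of it may be technical. The study asked which RNAs are associated with KIF5C.

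Ubiquitin passes from an activating enzyme (E1) to a conjugating enzyme (E2), and a ligase (E3) chooses the protein that receives it. HECT ligases carry ubiquitin on a cysteine of their own before handing it on, whereas RING ligases bring the E2 and the substrate together. In neurons, ligases of this size are known for their part in axon growth and degeneration, in synapse formation and in protein quality control. Several of the human genes are linked to neurodevelopmental disorders.

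The genes differ in how they work, and short coding stretches show the residues that do so. Herc1, Herc2, Huwe1 and Trip12 end in a HECT domain. The catalytic cysteine was located by a search of the last 110 residues for leucine and proline, any 3 residues, threonine, cysteine, and phenylalanine or valine. The 75 coding bases around it follow, with the cysteine codon in capitals. They are spliced coding sequence, 5′ to 3′, from GENCODE mouse release M21 on GRCm38.
Herc1: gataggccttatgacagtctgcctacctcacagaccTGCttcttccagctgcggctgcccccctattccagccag
Herc2: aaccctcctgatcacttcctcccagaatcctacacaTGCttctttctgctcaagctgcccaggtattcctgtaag
Huwe1: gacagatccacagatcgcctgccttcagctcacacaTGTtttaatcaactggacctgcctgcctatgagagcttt
Trip12: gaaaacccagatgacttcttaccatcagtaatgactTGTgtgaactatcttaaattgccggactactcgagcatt

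The cysteine lay 33 residues before the end in Huwe1 and Trip12, 50 in Herc1 and 72 in Herc2. Of the 25 residues that these stretches encode, 8 were identical in all 4 genes, and of the 75 bases 20 were. The stretch of Herc2 lies in its last exon, exon 93, at chr7:56230875-56230949 on the plus strand, and that of Trip12 in its last exon, exon 41, at chr1:84724684-84724758 on the minus strand. Those of Herc1 (exons 77 and 78, within chr9:66504888-66508207, plus strand) and Huwe1 (exons 82 and 83, within chrX:151933093-151934317, plus strand) span the last splice junction. GC content of the stretches was 58.7% in Herc1, 49.3% in Herc2 and in Huwe1, and 40% in Trip12.

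Ubr4 has no HECT domain. It carries a UBR box, a zinc-binding fold that in other ligases of the family recognises destabilising N-terminal residues. It is shown because Ubr4 gave the one call among the 7 genes. The 63 bases encode residues 1681 to 1701, in exon 37 of 106 at chr4:139421247-139421309 on the plus strand, with 6 cysteine and histidine codons in capitals.
Ubr4: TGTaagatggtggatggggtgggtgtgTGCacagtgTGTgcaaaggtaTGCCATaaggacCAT

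Birc6 joins a BIR domain, shared with inhibitors of cell death, to an E2 fold, so it acts as conjugating enzyme and ligase together. Mycbp2, the mouse PHR protein, passes ubiquitin through cysteines of a RING-linked domain and is known for its role in axon degeneration. By annotated coding length 6 of the genes were giants, from 4378 residues for Huwe1 to 5180 for Ubr4. Trip12 was much shorter, with 2025 residues, and its longest transcript had 9632 nt against 14579 to 15928 nt for the other 6. Between 96.8% and 99.7% of the genes tested had a shorter longest transcript.

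Libraries held 14623843 and 15172432 counts with the KIF5C antibody and 11059266 and 12543510 with IgG. The 7 genes had between 582 and 8210 counts in a library, so counting error is small beside the differences between libraries. The mitochondrial 16S rRNA took 11.3% and 31.9% of counts in KIF5C libraries 1 and 2, and 7.36% and 32.2% in IgG libraries 1 and 2. Together the 7 genes made up 0.371% and 0.271% of protein-coding counts in KIF5C libraries 1 and 2, and 0.291% and 0.241% in IgG libraries 1 and 2. Kif5c itself differed by 0.21 in log2 (SE 0.27, adjusted p = 0.702) and did not pass the test used here. Markers of neurons and of hippocampal excitatory cells were present, none of the 29 markers in 7 cell type lists had 0 counts, and 3 were lower (Spink8, Mog and Ttr).

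Across the set, Ubr4 transcripts were higher in the KIF5C precipitate, and those of the other 6 genes did not pass the test. The test was edgeR's quasi-likelihood F test with Benjamini-Hochberg adjustment over 14357 genes and a threshold of 0.05. It called 1 member higher and 0 lower, against a background of 3.33% of genes called higher and 0.745% called lower, and with 7 genes 1 call is the smallest count above 0. Without adjustment, at a p under 0.05, there was likewise 1 higher and 0 lower, where 1784 of the 14357 genes were higher and 1301 lower. DESeq2, which called 5.72% of its genes higher, and limma-voom gave 1 and 0 as well. The log2 fold changes, KIF5C over IgG, lay between -0.12 and 1.11 with a median of 0.30, beside a median of -0.03 for all genes tested. Of the 7 values 6 were above 0, as were 47.6% of the values of all genes tested. In a precipitate from whole tissue, fewer cells of a type, less RNA per cell and lower recovery with an antibody cannot be told apart. There was no input library among the samples analysed here.

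**Figure D1:**
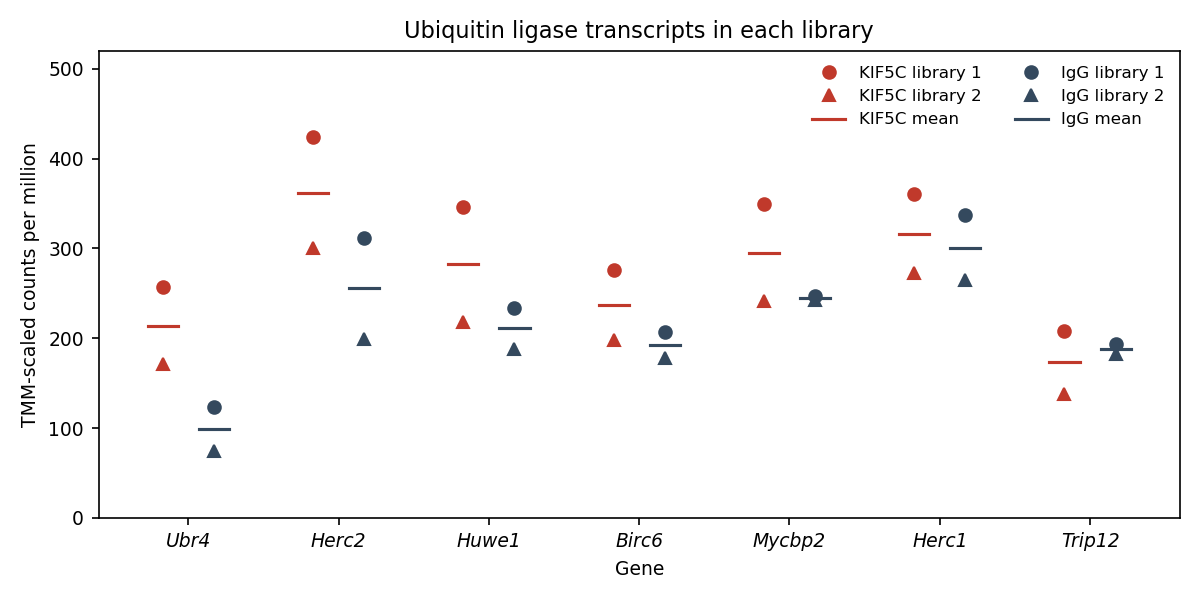
CPM, counts scaled to the TMM-adjusted size of their library (linear axis from 0), of the 7 transcripts in each library, KIF5C left of IgG, ordered by fold change, with points for libraries and short lines for the means of 2. Only for Ubr4 do both KIF5C libraries (171 and 257 CPM) lie above both IgG libraries (74.0 and 124 CPM).

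Ubr4 (chromosome 4, 139352609 to 139489588, plus strand) encodes a calmodulin-binding N-degron ligase that is known to work with the RING ligase KCMF1. In CPM, a count scaled to the TMM-adjusted size of its library, it measured 257 and 171 CPM in KIF5C libraries 1 and 2, against 124 and 74.0 CPM in IgG libraries 1 and 2. Both KIF5C libraries were above both IgG libraries, which holds for 26.3% of all genes tested. None of the 7 genes had both KIF5C libraries below both IgG libraries, as 26.2% of all genes did. The means were 214 ± 61.0 CPM with KIF5C and 98.8 ± 35.1 CPM with IgG (SD, n = 2 each). Ubr4 rose by 1.11 on the log2 scale, or 2.16-fold (SE 0.28, adjusted p = 0.0351). Counted from the highest log2 fold change down, it had rank 320 of 14357. The authors' deposited table lists Ubr4 at -0.96 with an adjusted p of 0.00424. Nearly all signs in it are opposite to KIF5C over IgG here, so its values were read as IgG over KIF5C. On that reading Ubr4 is likewise higher with KIF5C. Leaving out 1 library ended the call in 2 of 4 cases. The log2 fold change was 0.79 (adjusted p = 0.32) without KIF5C replicate 1 and 0.80 (adjusted p = 0.171) without IgG replicate 2, but 1.39 (adjusted p = 0.00394) without KIF5C replicate 2 and 1.53 (adjusted p = 0.0023) without IgG replicate 1. On library totals without further scaling it was 1.21 (adjusted p = 0.9999). Exons of Ubr4 share 109 bases with those of Emc1 on the same strand.

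Herc2 and Herc1 both carry RCC1-like repeats beside their HECT domain. Herc2 (chromosome 7, 56050196 to 56231800, plus strand) binds UBE3A, the Angelman syndrome ligase, and acts in DNA repair. It measured 424 and 300 CPM in KIF5C libraries 1 and 2, against 312 and 199 CPM in IgG libraries 1 and 2. KIF5C library 2 lay just under IgG library 1, so the groups overlapped. The log2 fold change was 0.50 (SE 0.28, adjusted p = 0.315), second in size among the 7, and 0.86 (adjusted p = 0.0619) without IgG replicate 1.

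Herc1 (chromosome 9, 66350450 to 66508775, plus strand) is the gene mutated in the tambaleante mouse, which loses cerebellar Purkinje cells. Its values were 361 and 272 CPM in KIF5C libraries 1 and 2, and 337 and 264 CPM in IgG libraries 1 and 2. The groups overlapped almost fully, and the log2 fold change was 0.07 (SE 0.26, adjusted p = 0.903). Herc2 thus stood in the second place of the set and Herc1 in the sixth; the difference between them was not tested in the fit. Herc1 exons overlap those of Fbxl22 and of the antisense gene Gm28379 on the opposite strand, over 317 and 695 bases, and no source used here gives the strandedness of the counting.

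Huwe1 and Trip12 are the HECT ligases without RCC1-like repeats. Huwe1 (chromosome X, 151800807 to 151935417, plus strand) is known to act on MCL1, p53 and N-MYC. It measured 346 and 218 CPM in KIF5C libraries 1 and 2, against 234 and 188 CPM in IgG libraries 1 and 2. KIF5C library 2 lay between the IgG libraries, and the log2 fold change of 0.42 (SE 0.27, adjusted p = 0.379) did not pass.

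Trip12 (chromosome 1, 84721189 to 84840516, minus strand) controls chromatin responses to DNA damage and the turnover of ubiquitin-fusion proteins. It was the one gene of the 7 with a value below 0. It measured 208 and 138 CPM in KIF5C libraries 1 and 2, against 193 and 183 CPM in IgG libraries 1 and 2. The KIF5C libraries lay on either side of both IgG libraries. The log2 fold change was -0.12 (SE 0.25, adjusted p = 0.821), and it was above 0 on library totals (0.06), with GC content offsets (0.03) and without KIF5C replicate 2 (0.17).

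Birc6 (chromosome 17, 74528295 to 74703356, plus strand) restrains caspases and autophagy. Its values were 276 and 198 CPM in KIF5C libraries 1 and 2, and 206 and 178 CPM in IgG libraries 1 and 2, with KIF5C library 2 between the IgG libraries. The log2 fold change was 0.30 (SE 0.25, adjusted p = 0.505).

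Mycbp2 (chromosome 14, 103113411 to 103346814, minus strand) limits axon survival through the NAD-making enzyme NMNAT2. It measured 349 and 241 CPM in KIF5C libraries 1 and 2, against 247 and 242 CPM in IgG libraries 1 and 2. The IgG libraries lay close together, KIF5C library 1 was above both and KIF5C library 2 was just under both. The log2 fold change was 0.27 (SE 0.25, adjusted p = 0.571).

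The 2 libraries of an antibody differed in a common way. In all 7 genes KIF5C library 1 was above KIF5C library 2, and IgG library 1 was above IgG library 2. Setting each KIF5C library against each IgG library gave 4 pairs. KIF5C library 1 was higher for 7 of 7 genes against either IgG library, with a median log2 ratio of 0.44 against IgG library 1 and 0.63 against IgG library 2. KIF5C library 2 was higher for 5 of 7 genes against IgG library 2 (median 0.16) and for 1 of 7, Ubr4, against IgG library 1 (median -0.06). Ubr4 was above 0 in all 4 pairs, from 0.47 to 1.79. The medians over all genes tested lay between -0.03 and 0.0003 in these pairs. The median fold change of the 7 genes was 0.05 without KIF5C replicate 1, 0.54 without KIF5C replicate 2, 0.42 without IgG replicate 1 and 0.23 without IgG replicate 2.

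**Figure D2:**
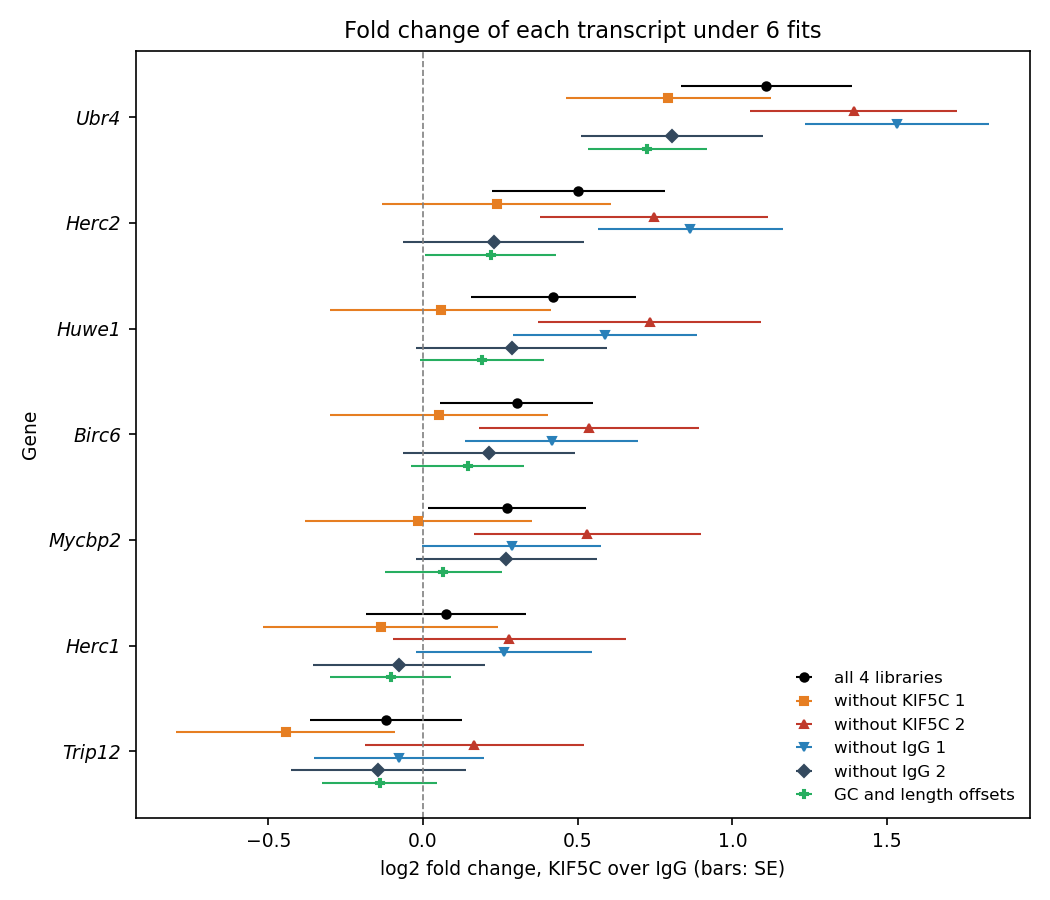
Log2 fold change, KIF5C over IgG, of each gene in 6 fits, with bars for the SE. Ubr4 lies above the other genes in each fit, between 0.72 with GC and length offsets and 1.53 without IgG replicate 1.

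A ratio between genes of 1 library does not depend on how libraries are scaled. The count of each gene was therefore divided by the geometric mean of the other 6. For Ubr4 the log2 ratio was -0.31 and -0.37 in KIF5C libraries 1 and 2, against -1.01 and -1.48 in IgG libraries 1 and 2, a difference of 0.90 without overlap. Trip12 went the other way, with -0.67 and -0.74 in KIF5C libraries 1 and 2, against -0.26 and 0.04 in IgG libraries 1 and 2, a difference of -0.59 without overlap. Herc1 was also lower relative to the others, at 0.26 and 0.41 with KIF5C and 0.68 and 0.66 with IgG. The remaining 4 genes overlapped. For every gene but Ubr4 the other 6 include Ubr4, so a higher Ubr4 count lowers these ratios, those of Trip12 and Herc1 among them. Against single genes, the ratio of Herc1 overlapped between antibodies for Mycbp2 and Trip12, and was lower with KIF5C for Herc2, Huwe1, Ubr4 and Birc6. That of Trip12 was lower with KIF5C, without overlap, for Herc2, Huwe1, Ubr4, Birc6 and Mycbp2, and overlapped for Herc1. A two-sided exact permutation test of 2 libraries against 2 cannot go below 0.333. Each of the 3 genes reached it (0.778 after adjustment over the 7 ratios), so the test cannot separate them from chance. The ratio of Ubr4 to Trip12 was 0.30 and 0.31 (log2) with KIF5C, against -0.64 and -1.31 with IgG.

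**Figure D3:**
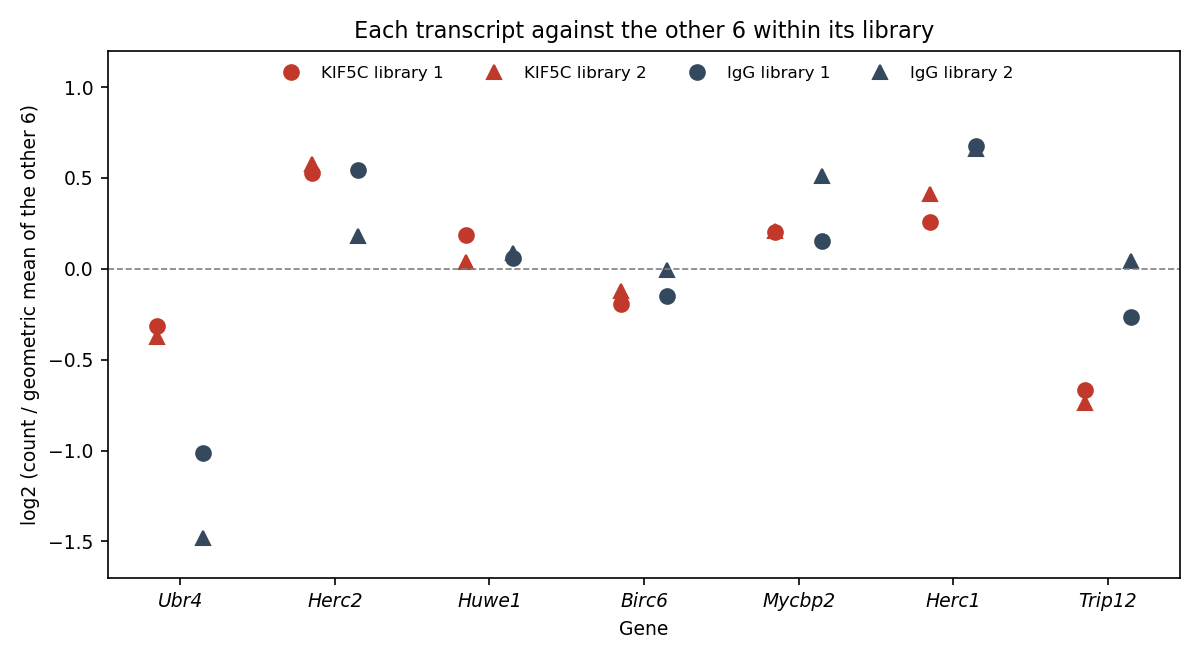
Log2 ratio of each gene's count to the geometric mean of the counts of the other 6 within the same library, KIF5C left of IgG. Ubr4 sits at -0.37 to -0.31 with KIF5C and at -1.48 to -1.01 with IgG, while Trip12 sits lower with KIF5C than with IgG.

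Levels were compared between genes per kilobase of the longest annotated transcript. With KIF5C, Herc2 was highest at 23.7 ± 5.74 CPM per kb, followed by Herc1 (20.9 ± 4.12), Mycbp2 (19.4 ± 5.04), Huwe1 (19.4 ± 6.21), Trip12 (18.0 ± 5.20), Birc6 (15.03 ± 3.46) and Ubr4 (13.4 ± 3.83; SD, n = 2 each). The library ranges of neighbours in this order overlapped throughout. With IgG the order was Herc1 (19.9 ± 3.40), Trip12 (19.5 ± 0.75), Herc2 (16.7 ± 5.22), Mycbp2 (16.1 ± 0.23), Huwe1 (14.5 ± 2.21), Birc6 (12.2 ± 1.28) and Ubr4 (6.20 ± 2.20). Here too the ranges of neighbours overlapped, apart from those of Birc6 and Ubr4. Ubr4 had the lowest mean level per length in both precipitates. Its IgG libraries, at 7.76 and 4.65 CPM per kb, were below those of Birc6, the next above it, at 13.1 and 11.3.

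Base composition differed between the genes in nearly the order of their fold changes. GC content of the longest transcript was 54.5% for Ubr4, 50.1% for Herc2, 48.1% for Huwe1, 47.5% for Mycbp2, 47.0% for Herc1, 46.4% for Birc6 and 43.6% for Trip12. Over the 7 genes Pearson's r with the log2 fold change was 0.97 and Spearman's rho 0.89, as a description of values that come from the same 4 libraries. Median fold changes of long transcripts as a whole also climbed with GC content. Among the 584 genes tested with a longest transcript of at least 9000 nt, the 7 included, the median log2 fold change was -0.06 at a GC content of 42% to 45%, 0.11 at 45% to 48%, 0.29 at 48% to 51% and 0.71 above 54%. Of these 584 genes 4.62% were called higher and 0% lower, and above 54% GC the share called higher was 31.7%, or 20 of 63.

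**Figure D4:**
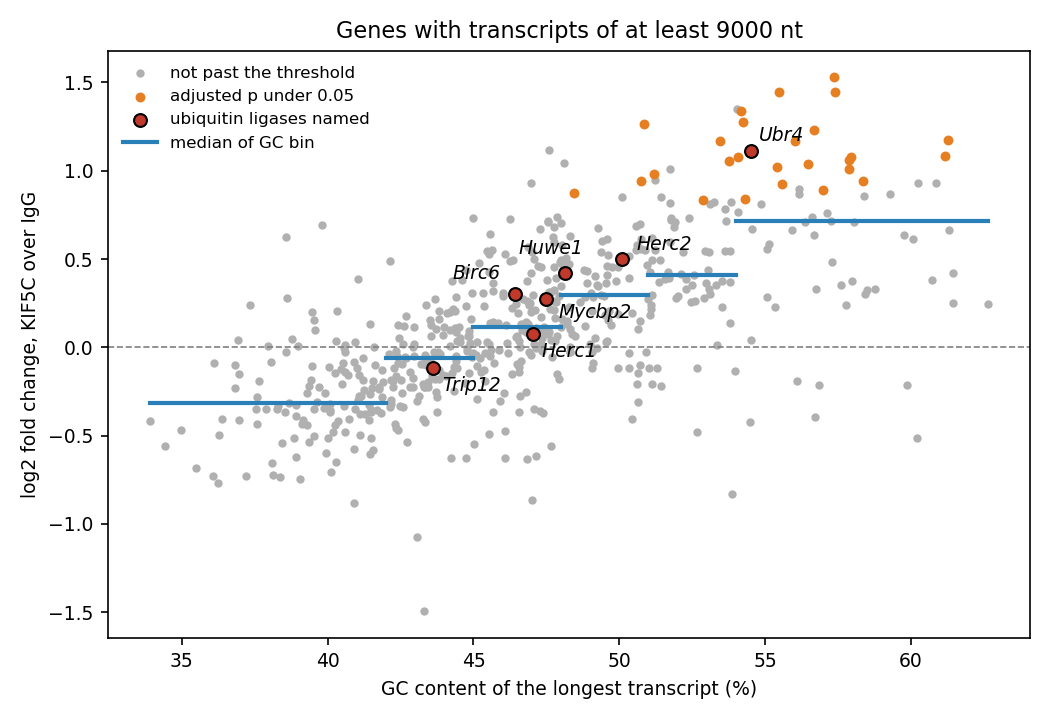
Log2 fold change, KIF5C over IgG, against GC content of the longest transcript for the 584 genes with transcripts of at least 9000 nt, with the 7 ubiquitin ligases named and the median of each GC bin as a line. The values climb with GC content, from a median of -0.32 up to 42% to 0.71 above 54%, and each ligase lies within 0.40 of the median of its bin.

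Set against long transcripts of its own GC bin, Ubr4 was 0.40 above the median and above the upper quartile of 1.01, and 9 of 63 genes had a larger value. Herc2 lay at the upper quartile of its bin (0.50), 0.21 above the median. Huwe1 was 0.13 above its median, Birc6 0.19 and Mycbp2 0.16 above, and Herc1 and Trip12 0.04 and 0.06 below. With offsets for GC content and length in each library, Ubr4 stood at 0.72 (SE 0.19, adjusted p = 0.053) and narrowly missed the threshold. With offsets for GC content alone, chosen after these values were seen, it was 0.98 (SE 0.25, adjusted p = 0.0294) and passed. Under the GC and length offsets the median of the 7 genes was 0.14 and none was called, against 2.92% of all genes called higher. Herc1 turned to -0.10 in that fit, which left 5 of the 7 values above 0. Summed levels of cell type markers differed between antibodies in some lists and overlapped in others. Astrocyte sums (742 to 855 CPM with KIF5C, 671 to 936 with IgG) and microglia sums (95.8 to 99.8 and 97.3 to 119) overlapped. Hippocampal excitatory sums were 1293 to 1349 CPM with KIF5C and 996 to 1239 with IgG, and endothelial sums 47.4 to 48.4 and 49.7 to 56.0. The 4 neuronal markers summed to 1752 to 1841 CPM with KIF5C and 1205 to 1382 with IgG, none of them called, and without Snap25, the most abundant, to 829 to 967 CPM with KIF5C and 781 to 784 with IgG. The 4 choroid plexus markers summed to 127 to 167 CPM with KIF5C and 232 to 431 with IgG, nearly all of it Ttr, which was called lower. The 3 others summed to 28.0 to 30.5 CPM with KIF5C and 19.1 to 31.0 with IgG, and 2 of them had values above 0. The 4 oligodendrocyte markers summed to 1341 to 1485 CPM with KIF5C and 1696 to 1712 with IgG, Mog called lower. The part of these markers in the results was not tested.

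By centred log2 CPM over the 4 libraries, the genes whose profiles were nearest to the mean profile of the 7 were Ppm1l, Adora1, Grin2b, Agap1 and Ptprg, among 4439 compared. Their Euclidean distances were 0.03 to 0.09 on the log2 scale, and their log2 fold changes were 0.32 to 0.44, none past the threshold. With 4 libraries such a likeness is a description only. Ppm1l encodes a protein phosphatase, Adora1 the adenosine A1 receptor and Grin2b an NMDA receptor subunit. Agap1 encodes a GTPase-activating protein and Ptprg a receptor tyrosine phosphatase.

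Other ubiquitin genes were read from 8 lists. As background to their counts at an unadjusted p under 0.05, 1784 of the 14357 genes tested were higher and 1301 lower. Calls in several of the lists changed in the fit without IgG replicate 1, which also called more genes over the whole table. They changed too with the replicate number as a block, where 1162 of all genes were higher and 517 lower. Of 23 other HECT ligases, Smurf1, which acts on TGF-beta signalling and axon formation, rose by 0.87 (SE 0.22, adjusted p = 0.0364), and 22 did not pass (median 0.12). At an unadjusted p under 0.05, 5 were higher and 0 lower. DESeq2, with an adjusted p for 22 of the genes, called 2 higher and 0 lower, beside 5.72% of all its genes called higher. With limma-voom 1 was higher and 0 lower. Without IgG replicate 1 the median of the 23 was 0.13, but the calls changed. With the replicate number as a block 3 were called higher and 0 lower. Smurf1 stood at 36.4 and 41.7 CPM with KIF5C, against 20.9 and 21.9 CPM with IgG, without overlap. It passed in 1 of the 4 fits with 1 library left out, where its log2 fold change was 0.78 to 0.97, and not with GC and length offsets (0.55, adjusted p = 0.138). With those offsets the call among these ligases was Ube3c, a proteasome-bound ligase singled out after its values were seen, at 0.67 (adjusted p = 0.0478), against 0.73 (adjusted p = 0.0647) without them. DESeq2 called Ube3c higher without offsets (adjusted p = 0.0185). Ube3a, the partner of Herc2, was at -0.41 (SE 0.24, adjusted p = 0.347).

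None of 5 further large ligases passed with edgeR, DESeq2 or limma-voom, and 2 had an unadjusted p under 0.05, both above 0. These were Hectd4, which the table lists as Gm15800, at 0.58 (SE 0.24, adjusted p = 0.174) and Cul9, a cullin ligase of the cytoplasm, at 0.55 (SE 0.26, adjusted p = 0.222). Hectd4 measured 289 and 222 CPM with KIF5C, against 187 and 154 CPM with IgG, without overlap. Rnf213, a very large RING ligase, was at -0.03, and the median of the list was 0.15. Without IgG replicate 1 that median was 0.33.

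Relatives by domain did not pass either. Among 6 other UBR box genes 0 passed with edgeR, DESeq2 or limma-voom and 0 had an unadjusted p under 0.05. Their median was 0.05, with Ubr7 at -0.33 and Ubr2 at 0.27 having the smallest p-values. Of 8 other BIR domain genes 5 were tested and 0 passed with edgeR or limma-voom, while 1 was lower at an unadjusted p under 0.05. DESeq2 gave an adjusted p for 2 of the 5 and called 0. The gene with an unadjusted p under 0.05 was Birc2, an inhibitor of apoptosis, at -0.47 (adjusted p = 0.205). By p-value it was followed by Xiap at -0.51 (adjusted p = 0.251) and Birc3 at 0.61 (SE 0.59, adjusted p = 0.587). Birc3 was scarce, at 1.08 and 1.09 CPM with KIF5C and 0.51 and 1.02 CPM with IgG. Naip2 and Naip6, the remaining genes tested, did not exceed 1.55 CPM, so the values of these scarce genes are uncertain.

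Of 28 E1 and E2 genes tested, which act upstream of the ligases, 1 rose, 0 fell and 27 did not pass, with 8 values above 0 (47.6% of all genes were above 0) and a median of -0.22. With GC and length offsets 14 of the 28 values were above 0 and the median was -0.0092. At an unadjusted p under 0.05, 2 were higher and 6 lower. DESeq2, with an adjusted p for 26 of the genes, and limma-voom called 0 lower. Without IgG replicate 1 the median was -0.22, but the calls of this list changed. With the replicate number as a block 1 was called higher and 2 lower. The gene that rose was Ube2o, itself a very large E2 that acts as its own ligase, at 0.91 (SE 0.23, adjusted p = 0.0355). Ube2o stood at 80.0 and 66.3 CPM with KIF5C, against 44.7 and 33.1 CPM with IgG, without overlap. The log2 fold change of Ube2o was 0.56 (adjusted p = 0.0812) with GC and length offsets, and the gene passed in 2 of the 4 fits with 1 library left out. It did not pass without KIF5C replicate 1 (0.77, adjusted p = 0.336) or IgG replicate 2 (0.73, adjusted p = 0.132). Its longest transcript has 58.2% GC.

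Partners and substrates of the ligases gave no call with edgeR over all 4 libraries with antibody as the only term. With the replicate number as a block, 0 partners were called higher and 1 lower, and 2 substrates higher and 1 lower. Of 7 partner genes 0 passed with edgeR or limma-voom, and at an unadjusted p under 0.05 2 were higher and 1 lower. Skp1a, the adaptor that joins Mycbp2 through FBXO45, was at -0.66 (SE 0.25, adjusted p = 0.138) and was called lower by DESeq2 (adjusted p = 0.0345). Fbxo45, the F-box subunit that Mycbp2 binds, was at 0.54 (adjusted p = 0.175), and Kcmf1, the partner of Ubr4, at 0.49 (adjusted p = 0.196). Of 13 substrate genes 0 passed with edgeR or limma-voom, nor did any of the 11 with an adjusted p from DESeq2, and at an unadjusted p under 0.05 2 were higher and 1 lower. The smallest p-values were those of Trp53, the p53 gene, at 0.78 (adjusted p = 0.105), Nae1, a subunit of the NEDD8 activating enzyme, at -0.77 (adjusted p = 0.138), and Tsc2, a brake on mTOR signalling, at 0.60 (adjusted p = 0.191). The median of the substrate genes was -0.17 over all 4 libraries, -0.02 without IgG replicate 1 and 0.04 without KIF5C replicate 1. Nmnat2, through which Mycbp2 acts in axons, was at 0.05.

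Ubiquitin itself is made from 4 precursor genes, of which 3 were tested. Rps27a, a fusion of ubiquitin with a ribosomal protein, fell by 0.89 on the log2 scale (SE 0.23, adjusted p = 0.0407). Rps27a stood at 42.6 and 48.8 CPM with KIF5C, against 69.4 and 99.8 CPM with IgG, without overlap. The call on Rps27a was kept in 1 of the 4 fits with 1 library left out, that without IgG replicate 1 (-1.13), and was lost with GC and length offsets (-0.37, adjusted p = 0.221). Ubb (-0.29) did not pass. Precursor genes have near-identical repeats and processed copies, so their counts are uncertain.

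**Figure D5:**
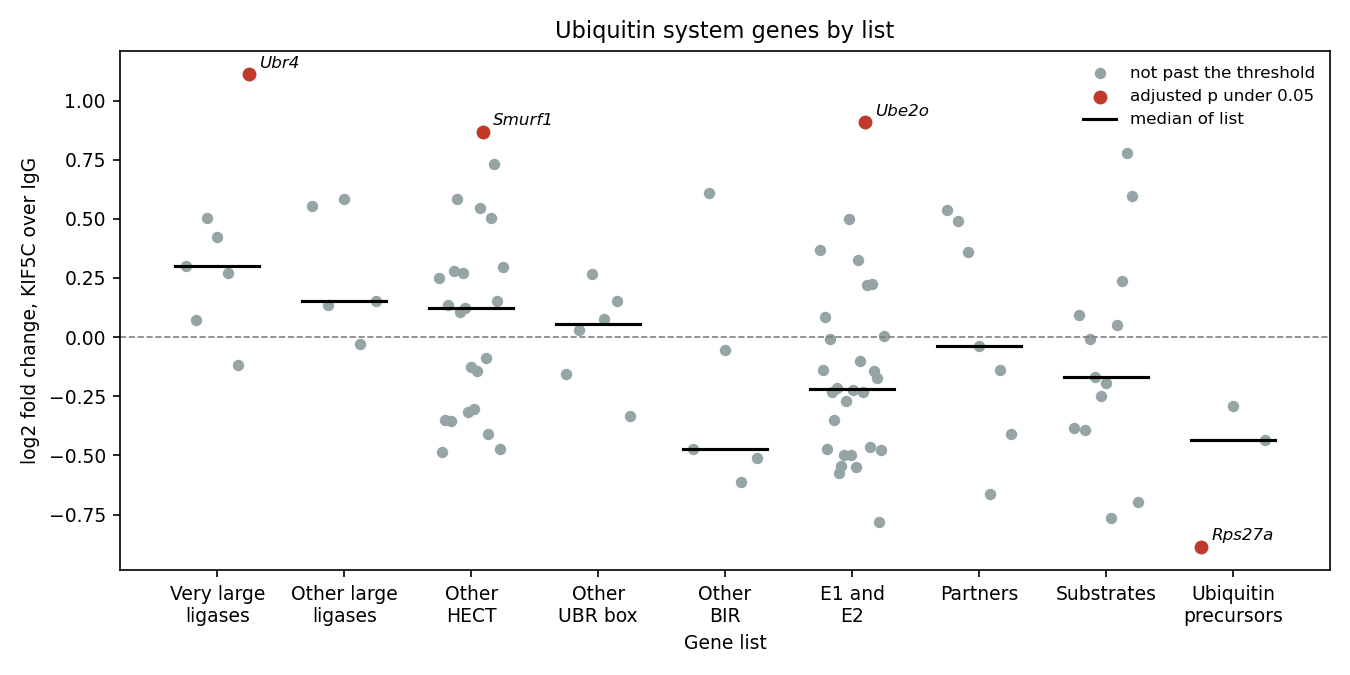
Log2 fold change, KIF5C over IgG, of each tested gene in the set of 7 and in 8 lists of the ubiquitin system, with a line for the median. The genes past the threshold are Ubr4, Smurf1 and Ube2o above 0 and Rps27a below 0, and list medians run from -0.47 to 0.30.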

How the data were processed

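RNA from KIF5C and IgG co-immunoprecipitates was sequenced. The authors deposited whole-number read counts per gene, not normalized. Salmon and DESeq are named with build GRCm38 in the submitters' processing notes, without versions or settings, and Salmon shares reads between similar transcripts. The authors also deposited their own comparison: log2 fold changes with standard errors, p-values and adjusted p-values, a test statistic (a score), a linear fold ratio and mean normalized counts (a signal), per the file headers. In it, 14085 of 14335 tested genes had a sign opposite to KIF5C over IgG. Its direction was read from these signs, although its label names IP against control.

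Columns were assigned through the sample descriptions. Counts were fitted over the whole table with edgeR 4.0.16 in R 4.3.3 (TMM scaling, filterByExpr with minimum count 10 and minimum total 15, group as the only term). A total of 27 rows whose names had become dates (0.121% to 0.252% of counts) stayed in the fit unnamed. SE is the size of a log2 fold change divided by the square root of F. CPM are TMM-scaled. Alternatives were DESeq2 1.42.0, limma-voom (limma 3.58.1), other scalings, filters and thresholds, a replicate block, each library left out, and offsets from splines with 4 degrees of freedom in GC content and log length. Lengths and GC content come from GENCODE M21, and 99.4% of genes tested had both. The scripts were tested on simulated data. Members and lists were chosen with earlier results of these data known. Named genes are the 7 members, genes of the lists past the threshold or otherwise up to 3 with the smallest p-values, and the 5 nearest profiles at a mean log2 CPM of at least 5; the other genes named were chosen after their values were seen. Single values of some list genes are not reported here.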

Additional observations from a re-analysis of the deposited data

How the results depend on the processing

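Ubr4 kept its direction in all 15 alternatives and passed in 11. It missed the threshold on library totals, with GC and length offsets, without KIF5C replicate 1 and without IgG replicate 2, the settings in which 0 of the 7 genes were called; the counts with 1 library left out ran from 0 to 1. The cause was not tested. No other member passed under any alternative. Herc1 turned to -0.10 with GC and length offsets and ran from -0.14 to 0.28 with 1 library left out. Mycbp2 ran from -0.015 to 0.53 and Trip12 from -0.44 to 0.17 in those fits, and Trip12 was 0.063 on library totals and 0.033 with GC content offsets. Over all genes, 478 higher and 107 lower became 1 and 4 on library totals, 902 and 261 without the low-count filter, and 889 and 342 at an adjusted p under 0.1. With GC content offsets, chosen after the data were seen, 556 were higher and 277 lower, and with GC and length offsets 419 and 138. With 1 library left out the counts were 116 to 978 higher and 27 to 586 lower. With the replicate number as a block, 1162 were higher and 517 lower, and Ubr4 was at 1.13 (adjusted p = 3.9e-06). The labels share numbers but state no pairing. Libraries with the same number had deviations correlated at 0.14, from 2 pairs.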

Other observations

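The gradient with GC content was steeper among long transcripts than over all genes. Over all genes tested the median log2 fold change, KIF5C over IgG, was -0.35 up to 42% GC and 0.15 above 54%, against -0.32 and 0.71 among the 584 genes with transcripts of at least 9000 nt. The difference between these gradients was not tested.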
